A study of Mus musculus with 2 samples.

Results

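The genes described here are 32 ion channel genes of electrically excitable cells and their closest partners, taken from the deposited expression table by gene symbol. They are 9 sodium channel alpha subunits and 3 beta subunits, all 10 calcium channel alpha1 subunits, Hcn2, Hcn3 and Hcn4, the sodium leak channel Nalcn with Unc79 and Unc80, and the sodium channel partners Fgf11 to Fgf14. All 32 were found among the table's 32813 symbols. Other genes of the sodium channel and HCN families are not analysed here, so no total for either family is given. The study has a single group of 2 libraries, replicate 1 and replicate 2, from mouse type 5 retinal bipolar cells, a class of cone bipolar cell that responds to light increments. The cells were purified by fluorescence-activated sorting from dissociated retina of the Htr3a-GFP line, in which the sorted label follows the serotonin receptor gene Htr3a and not a type 5 gene as such. The sources used here state neither the age and sex of the animals nor how many made up a library. With no second cell population, each value is a level in the sorted cells and not an enrichment.

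Voltage-gated sodium and calcium channels open when the membrane depolarises. The pore is formed by a single large alpha or alpha1 subunit, and auxiliary subunits set its trafficking and gating. Bipolar cells release glutamate from ribbon synapses on calcium entry through L-type channels, and T-type channels, which open near the resting potential, have been recorded from their axon terminals. Some cone bipolar types also carry tetrodotoxin-sensitive sodium currents. HCN channels conduct an inward cation current on hyperpolarisation, and Nalcn passes a resting sodium leak that needs the large scaffold proteins Unc79 and Unc80. The products of Fgf11 to Fgf14 stay inside the cell and bind sodium channel tails.

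Levels are in TPM, the share of a transcript in a fixed total, a unit scaled for transcript length. Genes can thus be compared with each other within a library as far as reads cover transcripts evenly, which was not tested. A gene was called above a line of 1 or 10 TPM where a one-sided limma test passed a Benjamini-Hochberg threshold of 0.05, and a gene not called may still exceed the line, so counts of genes with at least 1 TPM in both libraries are given beside the calls. The label of the cells was checked first. All 10 pan-bipolar markers were called above 10 TPM, as were 5 of 7 type 5 markers, Kcng4 with 229 and 326 TPM among them (replicate 1 first here and in every pair of values below). The type 5 markers Chrm2, with 0.08 and 1.15 TPM, and Slitrk5, with 0.55 and 2.15, were called above neither line. Rod photoreceptor markers were the main other class, with 8 of 10 called above 1 TPM, 9 with at least 1 TPM in both libraries, and sums of 1611 and 1466 TPM, against 8460 and 7751 TPM for the pan-bipolar markers. The 9 cone photoreceptor genes summed to 205 and 54.2 TPM, with 3 called and 7 with at least 1 TPM in both libraries. The 7 Muller glia genes summed to 188 and 284 TPM (5 called, 6 in both), the 10 amacrine genes to 73.6 and 97.8 (3 called, 3 in both) and the 10 ganglion cell genes to 32.7 and 75.3 (1 called, 2 in both). The 5 rod bipolar genes summed to 42.6 and 69.0 TPM, with 1 called and 4 with at least 1 TPM in both libraries. Horizontal cell, microglia, endothelial with pericyte, and muscle markers summed to at most 15.1 TPM in a library. No gene of these lists was called above 1 TPM, and Cx3cr1, Pecam1 and Des, 1 each of the last 3 lists, had at least 1 TPM in both libraries. The highest amacrine markers were Pax6, with 22.3 and 46.5 TPM, and Slc6a9, with 36.6 and 3.12. The highest ganglion cell marker was Thy1, with 28.3 and 63.9 TPM. Pax6 and Thy1 were called above 10 TPM and Slc6a9 above 1 TPM. Chat, Calb2, Nefm, Sncg, Pou4f2 and Pou4f3, also of the amacrine and ganglion cell lists, were listed at 0 in both libraries. So were C1qa of microglia, Cldn5, Cdh5 and Pdgfrb of vessels and Ryr1 and Myh11 of muscle.

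Of the 32 genes, 30 were above 0 in either library and could be tested, and Scn11a and Scn4b were listed at 0 in both. Expression above 1 TPM was called for 19 of the 30 (63.3%), where 55.5% of the 19968 genes tested were called. Expression above 10 TPM was called for 13 of the 30 (43.3%), against 32.4% of all genes. These shares lie near those of all genes, so the counts do not set the channel genes apart. Without a test, 21 of the 32 had at least 1 TPM in both libraries (65.6%), against 41.1% of all symbols, and against 53.1% of the 20317 symbols that the GENCODE M21 annotation lists as protein-coding. The median over the 32 genes was 3.89 on the log2(TPM + 1) scale. That of all symbols was 0.75, and that of the 19968 symbols above 0 in either library was 3.22.

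**Figure D1:**
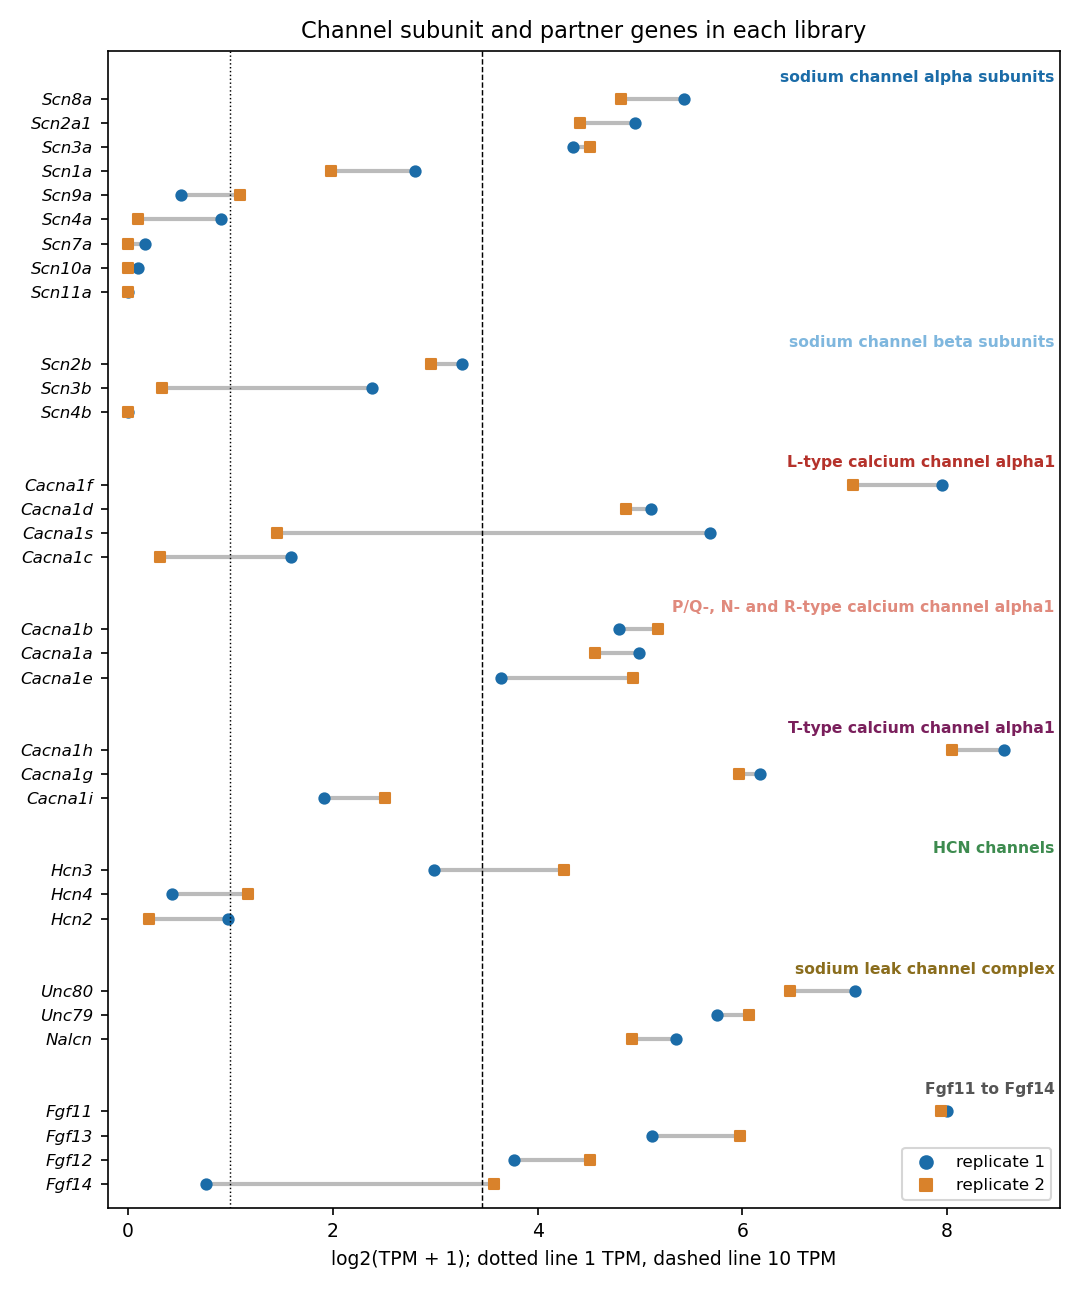
Level of each of the 32 genes on the log2(TPM + 1) scale (horizontal axis), grouped by family and ordered by mean within it; circles are replicate 1, squares replicate 2, and the grey bar joins them. Cacna1h, Fgf11 and Cacna1f reached the highest levels, 5 of the 8 families held a gene under the dotted line of 1 TPM in at least 1 library, and Cacna1s, Fgf14 and Scn3b had the longest bars.

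The proximal promoters of 3 of the 4 most abundant members follow, to show the sequence upstream of these abundant messages. Each ends before the RefSeq start of the gene, and that of Cacna1f before the GENCODE start, which lies farther upstream. For Fgf11 and Unc80 GENCODE places the gene start downstream of the window shown. The sequences come from RefSeq on GRCm38.p6, are written 5′ to 3′ on the strand of the gene, and carry in capitals the E-box letters CANNTG, which read the same on both strands and are the recognition core of basic helix-loop-helix factors. The window of Cacna1f lies at chrX:7606853-7607082 on the plus strand, that of Fgf11 at chr11:69802281-69802530 on the minus strand, and that of Unc80 at chr1:66467684-66467933 on the plus strand.
Cacna1f: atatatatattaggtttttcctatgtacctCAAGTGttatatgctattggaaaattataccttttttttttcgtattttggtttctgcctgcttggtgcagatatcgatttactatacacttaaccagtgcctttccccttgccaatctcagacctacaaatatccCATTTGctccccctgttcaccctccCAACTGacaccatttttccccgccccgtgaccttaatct
Fgf11: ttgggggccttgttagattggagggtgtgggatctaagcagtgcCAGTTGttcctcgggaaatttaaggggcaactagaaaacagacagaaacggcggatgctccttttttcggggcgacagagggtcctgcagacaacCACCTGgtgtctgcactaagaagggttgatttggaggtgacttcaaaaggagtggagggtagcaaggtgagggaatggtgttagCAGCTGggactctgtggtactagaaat
Unc80: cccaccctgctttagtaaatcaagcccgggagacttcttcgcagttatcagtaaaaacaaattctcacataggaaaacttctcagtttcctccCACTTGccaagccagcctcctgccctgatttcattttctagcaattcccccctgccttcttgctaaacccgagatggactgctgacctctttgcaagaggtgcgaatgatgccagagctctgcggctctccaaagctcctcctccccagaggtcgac
Cacna1f and Fgf11 hold 3 E-box matches each in these stretches and Unc80 holds 1. Windows of 250 bases before the start were found for 26 of the 32 genes, 37 windows in all, and 24 of the 37 held an E-box, against 66.2% of all 32851 windows in the table. The letters TAATCC (or GGATTA on the other strand), the core bound by the photoreceptor and bipolar factors Otx2 and Crx, occurred in 2 member windows, those of Cacna1s and Scn7a, and in 6.25% of all windows. A match is a description of the letters and not of binding.

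Calcium channel alpha1 genes were the most abundant of the channel families, and 2 members carried most of it. Cacna1h, which encodes the T-type channel Cav3.2, had 377 and 264 TPM (320 ± 79.8, SD, n = 2), rank 344 of all symbols by mean. Cacna1f, which encodes Cav1.4, the L-type channel of photoreceptor ribbons and the gene of congenital stationary night blindness, had 247 and 134 TPM (190 ± 79.8). The libraries' ranges for Cacna1h and Cacna1f did not overlap, and Cacna1h was 1.52 times Cacna1f in replicate 1 and 1.97 times in replicate 2. Cacna1g, the T-type channel Cav3.1, followed with 71.0 and 61.4 TPM, below both in each library. With 2 libraries an exact two-sided sign test cannot go below p = 0.5, so orders of genes are given without a test.

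T-type genes held 52.9% and 56.7% of the summed TPM of all 10 alpha1 genes (54.8% ± 2.74, SD, n = 2), and Cacna1h alone held 44.2% and 45.4%. The share of Cacna1h moved less between libraries than its level did. The third T-type gene, Cacna1i (Cav3.3), had 2.77 and 4.69 TPM and was not called above 1 TPM. L-type genes held 39.1% and 28.3% of the sum, so T-type exceeded L-type message 1.35-fold in replicate 1 and 2.01-fold in replicate 2.

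**Figure D2:**
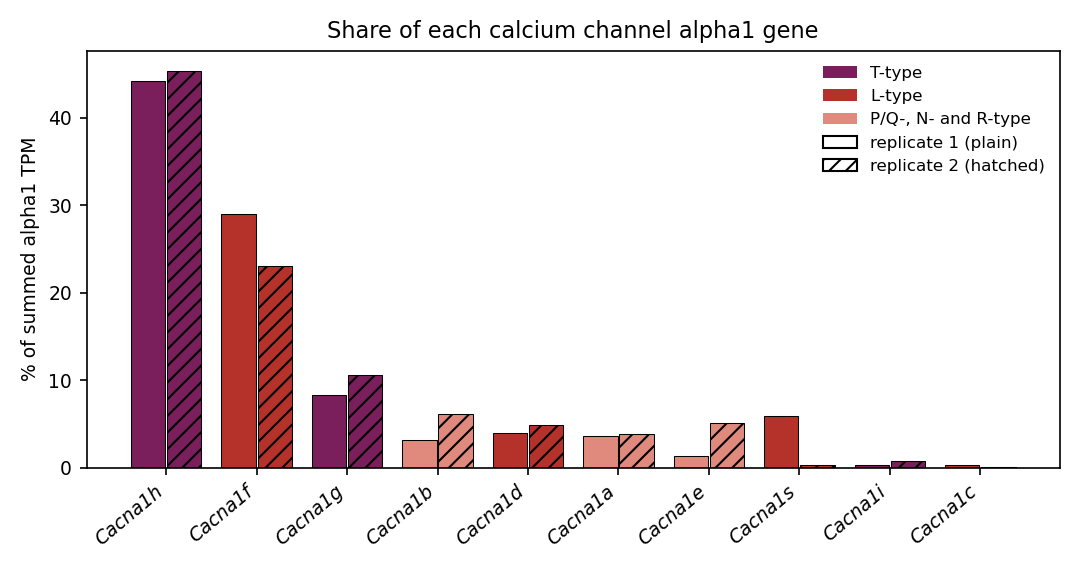
Share of each calcium channel alpha1 gene in the summed TPM of all 10 (vertical axis, %), plain bars for replicate 1 and hatched bars for replicate 2, coloured by channel type. Cacna1h and Cacna1f came first and second in both libraries, and Cacna1s held 5.91% in replicate 1 and 0.299% in replicate 2.

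Among the L-type genes Cacna1f held 74.2% and 81.6%. Cacna1d, which encodes Cav1.3, the L-type channel of hair cell ribbons, had 33.4 and 28.2 TPM, close in both libraries, and Cacna1f exceeded it 7.39-fold and 4.76-fold. Cacna1c, the cardiac and neuronal L-type channel Cav1.2, had 2.01 and 0.24 TPM and was not called above 1 TPM. Cacna1f is also a photoreceptor gene. The rod marker sums above were alike in the libraries, though single rod markers went both ways. Gngt1 had 965 and 639 TPM, while Gnat1 had 14.3 and 113 and Nrl 3.43 and 10.7. The cone marker sum was higher in replicate 1. These values stand beside that of Cacna1f, and the part of photoreceptors in it was not tested.

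Cacna1s, the L-type channel of skeletal muscle, was the member on which the libraries differed most, with 50.4 TPM in replicate 1 and 1.74 in replicate 2. It was called above 1 TPM, in a fit in which the variance came from genes of like level and not from its own 2 values, and also in a fit without a variance trend. The muscle markers Ryr1 and Myh11 were listed at 0 in both libraries, Acta1 had 0 and 0.94 TPM, and the 5 muscle genes summed to 4.65 and 5.04 TPM. An antisense gene, Gm37759, shares 1309 of the 6550 bases in the merged exons of Cacna1s. The sources used here do not say whether counting used strand, so reads of that stretch cannot be assigned to a strand.

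The P/Q-, N- and R-type genes, which drive fast release at conventional synapses, were all called above 1 TPM at levels similar to each other. Cacna1b (Cav2.2) had 26.7 and 35.3 TPM, Cacna1a (Cav2.1) 30.7 and 22.6, and Cacna1e (Cav2.3) 11.5 and 29.5. Their ranges overlapped pairwise with the next in order, and their shares of the alpha1 sum were 8.09% and 15.0% together. Cacna1e was 2.56 times higher in replicate 2. The type 5 bipolar marker sum, with 680 and 759 TPM, was also higher there. So were the amacrine, ganglion cell, Muller glia and rod bipolar sums, among others. The pan-bipolar, rod and cone sums were lower, though single rod markers went both ways. The ganglion cell sum rose mostly through Thy1, with 28.3 and 63.9 TPM. The part of other cell types in the Cacna1e value was not tested. Exons of Cacna1a and of Cacna1d overlap those of Gm16183 and Chdh by 3.81% and 4.67% of their length, and those of Cacna1h overlap Tpsg1 by 1.62%.

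Of 16 genes for auxiliary subunits of calcium channels 13 could be tested, and 9 were called above 1 TPM. Over all lists of partner genes 35 of the 50 tested were called, where 55.5% of all genes tested were called. The highest were Cacna2d4, an alpha2delta subunit that works with Cav1.4 in photoreceptors, with 286 and 181 TPM, and the beta subunit gene Cacnb2 with 165 and 121. Both were higher in replicate 1, as were Cacna1f and 9560 of the 15992 symbols with a mean of at least 1 TPM. Cacng7, named as a gamma subunit and known as an AMPA receptor partner, had 55.9 and 57.2 TPM. Cacng1, Cacng6 and Cacng8 were listed at 0 in both libraries. Of 17 genes for tethers and calmodulin-like regulators of presynaptic channels 11 were called above 1 TPM, among them Cabp5 with 1609 and 1064 TPM and Calm2 with 1131 and 1305. The lowest were Stac, with 0.2 and 0 TPM, and Cabp1, listed at 0 and at 0.51. Cabp4, a regulator of Cav1.4 in photoreceptors that is named here after its values were seen, had 0.94 and 0.16 TPM.

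The sodium leak complex was expressed as a whole, with all 3 genes called above 10 TPM. Unc80 had 136 and 87.6 TPM (112 ± 34.3, SD, n = 2), Unc79 had 53.0 and 66.1 (59.5 ± 9.27) and Nalcn, the pore, had 39.8 and 29.3 (34.6 ± 7.40). The order Unc80, Unc79, Nalcn was the same in both libraries, and the range of Unc80 overlapped neither of the others. The range of Unc79 lay above that of Nalcn as well. Unc80 exceeded Nalcn 3.42-fold and 2.99-fold, a ratio that changed less between libraries than either the Unc79 to Nalcn ratio (1.33 and 2.25) or the Unc80 to Unc79 ratio (2.57 and 1.32). Fam155a, which encodes a chaperone subunit of Nalcn, had 13.0 and 23.9 TPM and was called above 1 TPM, while Fam155b did not match a symbol of the table used here.

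Of the intracellular fibroblast growth factors, Fgf11 stood out by level. It had 254 and 244 TPM (249 ± 7.21, SD, n = 2), the second highest of the 32 genes, and the libraries were within 1.04-fold. Fgf13 followed with 33.8 and 62.2 TPM and Fgf12 with 12.7 and 21.9, both called above 1 TPM and both higher in replicate 2. Fgf11 held 84.4% and 72.0% of the summed TPM of the 4 genes, 7.53 and 3.93 times Fgf13. Fgf14, the partner linked to spinocerebellar ataxia, had 0.70 and 10.9 TPM and was not called. Values of the amacrine markers Gad1 (0.06 and 10.4 TPM), Gad2 (0.11 and 9.94) and Tfap2b (0.33 and 20.4) stand beside that of Fgf14, since they also were near 0 in replicate 1 alone. Slc6a9 and Th of the same list went the other way, with 36.6 and 3.12 TPM and with 13.3 and 2.55. Pax6 had 22.3 and 46.5 TPM, and Chat and Calb2 were at 0 in both libraries. The part of amacrine cells in the Fgf14 value was not tested.

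Sodium channel message came mostly from 3 neuronal genes. Scn8a, the Nav1.6 channel of axon initial segments and nodes, had 42.2 and 27.2 TPM (34.7 ± 10.6, SD, n = 2), Scn2a1 (Nav1.2, listed as Scn2a in GENCODE) had 29.9 and 20.4 (25.1 ± 6.77), and Scn3a (Nav1.3), best known from the developing brain, had 19.4 and 21.8 (20.6 ± 1.68). All 3 were called above 1 TPM, and they made up 92.4% and 94.4% of the summed TPM of the 9 alpha genes examined. Scn8a came first in both libraries, while Scn2a1 and Scn3a exchanged places and their ranges overlapped. Scn1a, the Nav1.1 channel of inhibitory neurons and ganglion cells, had 5.99 and 2.94 TPM and was not called, although it was above 1 TPM in each library.

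The other alpha genes were near or at 0. Scn9a (Nav1.7), a channel of pain-sensing neurons, had 0.43 and 1.13 TPM, and Scn4a, that of skeletal muscle, had 0.87 and 0.07. Scn7a had 0.12 and 0 TPM and Scn10a (Nav1.8) 0.07 and 0, while Scn11a (Nav1.9) was listed at 0 in both. Scn9a, Scn10a and Scn11a, sodium channel genes known from peripheral sensory neurons, thus had at most 1.13 TPM in either library. A listed 0 can be a failed estimate in this kind of file, so no fold is given against it.

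On chromosome 2 of GRCm38, 5 of these genes lie within 1.33 Mb, from 65457118 to 66784914, all protein-coding. In chromosomal order they are Scn3a on the minus strand, Scn2a1 on the plus strand, and Scn1a, Scn9a and Scn7a on the minus strand. Their means were 20.6, 25.1, 4.47, 0.78 and 0.06 TPM in that order. The 2 genes at the left end, whose starts face each other, were the 2 with over 10 TPM in both libraries, and Scn7a at the right end was nearest to 0. Scn8a lies alone on chromosome 15 from 100869858 to 101045938.

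**Figure D3:**
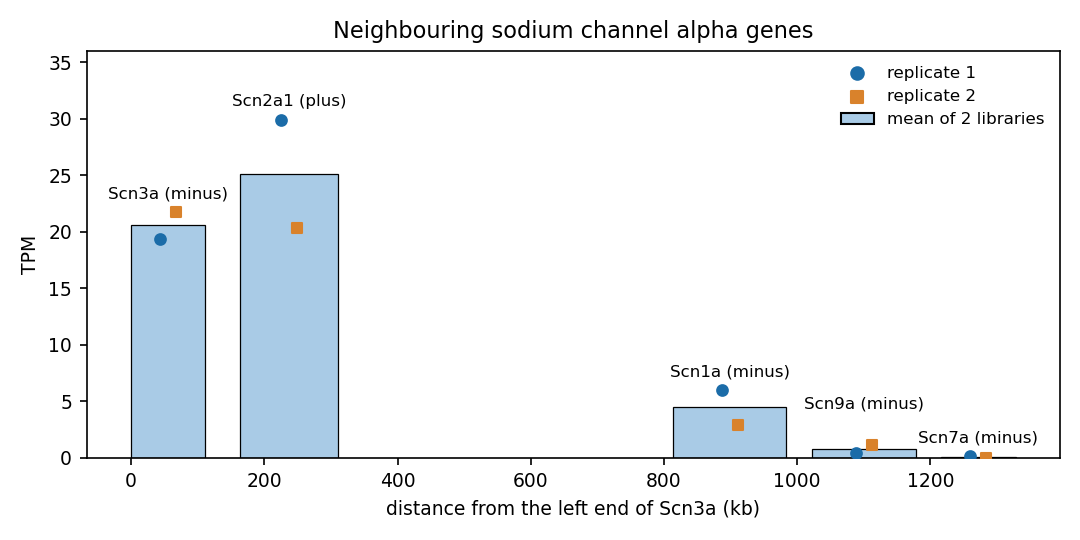
TPM (vertical axis) of the 5 sodium channel alpha genes of chromosome 2 against distance from the left end of Scn3a in kb; each bar spans its gene at the height of the mean, with a circle for replicate 1 and a square for replicate 2, and the strand is in brackets. Scn3a and Scn2a1 reached 19.4 to 29.9 TPM, and the other 3 genes lay at or under 5.99 TPM.

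The message of the 9 sodium channel alpha genes examined was small beside that of the calcium channel alpha1 genes and of the Fgf partners. The 9 genes summed to 98.9 and 73.4 TPM and the 10 calcium channel alpha1 genes to 852 and 581, a ratio of 8.61 and 7.92. Fgf11 to Fgf14 summed to 301 and 339 TPM, or 3.05 and 4.62 times the sodium channel alpha genes examined. Fgf11 alone exceeded that sum 2.57-fold and 3.33-fold.

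Of the beta subunits, which modulate gating and act in adhesion, Scn2b was called above 1 TPM, with 8.59 and 6.75 TPM. Scn3b had 4.21 and 0.26 TPM and was not called, and Scn4b, the subunit tied to resurgent current, was listed at 0 in both libraries. Of 15 genes of the axon initial segment and of sodium channel anchoring 13 were called above 1 TPM, where 55.5% of all genes tested were called. The highest were Ank2 with 536 and 464 TPM, Ank3, which encodes the ankyrin-G scaffold that clusters sodium channels, with 467 and 321, and Sptbn1 with 322 and 324. The lowest were Kcna1, with 0.15 and 0.03 TPM, and Cntn2, with 0.19 and 1.73.

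Of the 3 HCN genes examined Hcn3 was the only one called above 1 TPM, with 6.96 and 18.2 TPM. It held 84.1% and 92.9% of the TPM of Hcn2, Hcn3 and Hcn4 together. Hcn4, the slow pacemaker channel known from certain OFF cone bipolar types, had 0.35 and 1.25 TPM, and Hcn2 had 0.97 and 0.15. The ranges of Hcn2 and Hcn4 overlapped, and neither overlapped that of Hcn3. Exons of Hcn3 overlap those of Pklr on the other strand by 711 bases, 17.1% of their length, and Pklr was listed at 0 and at 0.44 TPM. Of 5 HCN regulators 4 could be tested, and Kctd3 was the 1 called above 1 TPM, with 15.9 and 20.98 TPM. Of all genes tested 55.5% were called. Pex5l, which encodes the HCN trafficking subunit TRIP8b, was listed at 0 and at 3.36 TPM, Kcne2 had 0.55 and 0.42, Lrmp was listed at 0 and at 0.07, and Mrvi1 was at 0 in both.

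Between the libraries, 24 of the 32 genes had a mean of at least 1 TPM and could be compared on the log2(TPM + 1) scale. More than a 2-fold difference was seen for 3 genes in the direction of replicate 1 (12.5%), where 21.7% of the 15992 symbols of that level lay, and for 3 in the direction of replicate 2 (12.5%), against 13.7%. Neither share exceeded that of all symbols. The 3 genes higher in replicate 1 were Cacna1s (log2 difference, replicate 2 minus replicate 1, of -4.23), Scn3b (-2.05) and Cacna1c (-1.28). The 3 higher in replicate 2 were Fgf14 (2.81), Cacna1e (1.28) and Hcn3 (1.27). The median difference was -0.27 for the 24 genes and -0.25 for all symbols.

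**Figure D4:**
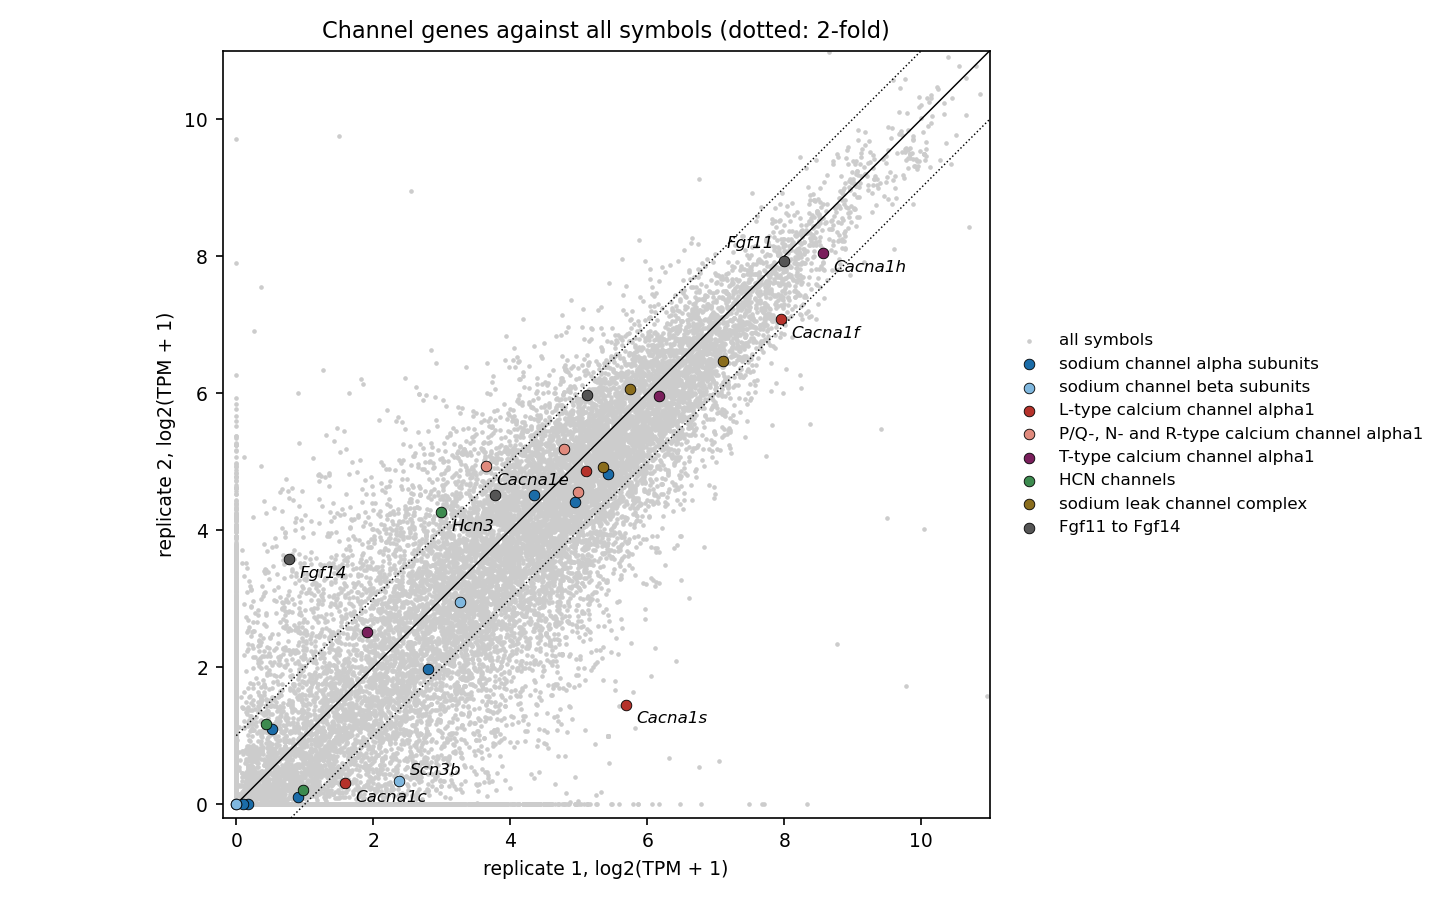
Level in replicate 2 against replicate 1, both as log2(TPM + 1), for all symbols (grey) and the 32 channel and partner genes (coloured by family); the solid line marks equal levels and the dotted lines a 2-fold difference, and 34 symbols beyond 11 on either axis are outside the plot. Cacna1s and Fgf14 lie farthest from the line among the coloured genes, and Fgf11 lies almost on it.

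Cacna1f and Fgf13 are on the X chromosome, and Xist, the RNA of the inactive X in female cells, was at 2339 TPM in replicate 1 and 4.9 in replicate 2. Cacna1f was 1.84 times higher in replicate 1 and Fgf13 1.84 times higher in replicate 2, so the X-linked members moved in opposite directions. The part of sex in either value was not tested, and with 1 library of each kind it cannot be told apart from any other difference between the libraries.

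Down the order of means, few neighbours differed beyond their spread. Cacna1h lay above Fgf11 and Unc80 above Cacna1g without overlap of the libraries' ranges. Every other gene overlapped the next in order, so the order of neighbours such as Scn8a and Nalcn, or Cacna1b and Cacna1d, is not resolved by these data. Genes farther apart in the order can still be apart, as Cacna1g and Unc79 were from Nalcn and Scn8a.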

How the data were processed

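The authors deposited 1 table of TPM values with a column per library. Per the submitters' processing notes, TopHat2 2.0.10, RSEM 1.2.28 and build mm10 were used, without the role of each. Per the labels' protocols, sorted cells went into RNAlater and the NuGEN Ovation V2 amplification kit made the libraries. The sources used here name no annotation release, filter or strand setting. The column of replicate 1 has letters exchanged in its name and was matched by replicate number. Columns sum to 999999.75 and 999999.66, of which mitochondrial transcripts took 17.3% and 24.6%. TPM keeps no depth, so depth is unknown and counting intervals could not be computed. The design text speaks of biological replicates.

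Values were put on the scale log2(TPM + 1). Tests left out genes without a value above 0. Expression above 1 or 10 TPM was tested in limma 3.58.1 (R 4.3.3) by a one-sided test (intercept-only model, trended variance; Benjamini-Hochberg over 19968 genes, threshold 0.05). The estimated prior was infinite, so a gene's own spread did not enter its call. On simulated data of 19968 genes the test called 11 of 50 set at a level of 4 TPM, 47 of 50 set at 16, all 50 set at 64 and 0 of 50 set at 0.25, so a gene not called is not shown to be under 1 TPM. Python 3.11.15 with pandas 2.3.3 and matplotlib 3.10.9 was used. Positions and exon overlaps come from GENCODE M21 on GRCm38, the assembly of mm10, for all 32 genes. Named were every member, up to 3 highest and 2 lowest of each partner list, and up to 2 highest and those at 0 of each marker list, of which some are given as sums and some are not reported here. Chrm2, Slitrk5, Gad1, Gad2, Tfap2b, Th, Gnat1, Nrl, Acta1, Xist and the overlapping genes were named after their values were seen. The 32 genes and the lists were chosen with earlier results of these data known. Alternatives were pseudocounts of 0.5 and 2, a minimum mean of 0.5 TPM, no variance trend, rescaling without mitochondrial transcripts, a fold of 4, and each library alone.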

Additional observations from a re-analysis of the deposited data

How the results depend on the processing

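No paired analysis was possible because the study has 1 group. The count of members above 1 TPM stayed between 19 and 21 under every limma setting tried. With a minimum mean of 0.5 TPM Scn4a, Scn7a and Scn10a were not tested, and the other settings tested 30 members. Without a variance trend Scn1a and Cacna1i were also called, and no member's call above 1 TPM was lost in any limma setting. The count above 10 TPM lay between 12 (no variance trend) and 15 (rescaled without mitochondrial transcripts), and that of partner genes between 35 and 37. With 1 library left out there is no test: 24 members reached 1 TPM without replicate 1 and 23 without replicate 2, and 18 and 17 reached 10 TPM. At a fold of 4 in place of 2, 3 members differed between the libraries and not 6, since that threshold is higher. The median level of the 32 genes, 3.89 on the log2(TPM + 1) scale, was 3.71 to 4.34 with 1 library left out. The T-type share of calcium channel TPM was 52.9% to 56.7%. A minimum mean of 0.5 TPM changes no level and gave no other median. Depth is unknown, so the counting error of low values such as those of Scn9a, Hcn2 and Hcn4 could not be computed, and 2 libraries limit every spread given.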
